A study of Mus musculus with 194 samples.

Results

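Gene expression in the dorsal striatum (DS) was compared between mice given a cocaine challenge after abstinence and mice given repeated cocaine. The libraries were chosen by their labels alone: DS libraries of the challenge group (challenge cocaine) and of the group labelled Chronic (repeated cocaine), at 0, 1, 2 and 4 hr, in both sequencing runs that held them. That gave 48 of the 194 libraries of the series, from 15 challenge and 17 repeated mice. The first run (run0230) held 1 library of every mouse, 15 against 17. The second run (run0194) held another library of 8 mice of each group, 2 per time point, so it repeats the library and the sequencing and not the mice. Genes that differed in the same direction in both runs are the subject of what follows: 114 of the 12060 genes tested in both.

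All animals were young adult male C57BL/6OLAHSD mice habituated to saline injections and the test box. Repeated mice received cocaine intraperitoneally once daily. Challenge mice received the same daily course, then an abstinence period of weeks without drug, then a single dose. A further group, used only as a reference level, received a first single dose (acute cocaine, exp20: the 8 DS libraries of the second run, since those of another run were not used here), and its 0 hr mice had no cocaine. The 0 hr samples of the repeated and challenge groups came from home-cage mice without cocaine that day, so that 0 hr of the challenge group is the abstinent state, and the other samples were taken 1, 2 or 4 hr after the last dose. In the first run there were 3 challenge and 4 repeated mice at 0 hr, 4 and 4 at 1 hr, 4 and 5 at 2 hr, and 4 and 4 at 4 hr. The DS was dissected from coronal slices and read by 3′ RNA-seq, which counts reads at transcript ends. Total counts ran from 2460920 to 10367769 per library in the first run and from 1269391 to 2170571 in the second.

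A feature of the labels bears on every result. All challenge mice carry 1 experiment number (exp18), whereas repeated mice carry exp16 (9 mice, first run only) or exp17 (8 mice, both runs). Treatment, experiment number and the greater age of the challenge mice therefore cannot be told apart. As a measure of how far experiment numbers alone differ, exp17 was compared with exp16 within repeated cocaine: 964 of 12561 genes differed (7.67%), 607 higher in exp17 (4.83%) and 357 lower (2.84%). A gene was called different here and below when its edgeR quasi-likelihood p, adjusted by the Benjamini-Hochberg method over all genes tested, was under 0.05 and its fold change over 1.2, with time point as a covariate.

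The striatum is the input nucleus of the basal ganglia. Its projection neurons receive dopamine and glutamate, and cocaine, by raising extracellular dopamine, drives them to transcribe immediate-early genes (IEGs) such as the Fos, Egr and Nr4a factors. Sensitization to repeated cocaine and its persistence through abstinence are studied as changes in both this inducible response and the resting transcriptome, which in striatal tissue also holds RNA of oligodendrocytes and other glia.

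In the first run 1425 of 12739 genes were called (11.2%), 673 higher (5.28%) and 752 lower (5.9%) in challenge mice. In the second run 228 of 12119 were called (1.88%), 129 higher (1.06%) and 99 lower (0.817%), whereas the first-run libraries of the same 8 against 8 mice gave 1394 and the whole first run, with every library thinned to its smallest, 1338. The cause of that gap was not tested, and neither fit matched the second run in both depth and number of mice. The smallest first-run library, 2460920 counts, was above the deepest of the second run, 2170571. The 114 genes shared by both, 66 higher (0.547%) and 48 lower (0.398%), are 0.945% of the genes tested in both runs, 8% of the first-run calls and 50% of the second-run calls, and no gene was called in opposite directions. The 66 included IEGs and chaperone genes, and the 48 included myelin, clock-output and glucocorticoid-responsive genes. The changes were small: the median absolute log2 fold change was 0.45 in the first run and 0.51 in the second, and only Fosb passed a log2 fold change of 1 in the first run (2.66-fold). Complete separation of the groups was rare, with 8 of the 114 genes not overlapping in the first run, against 18 of all genes tested (0.141%), and 10 in the second run, against 32 of all genes tested (0.264%).

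Because both runs share mice, the mice with a single library (7 challenge, 9 repeated, all exp16) were tested against each other and joined with the second run, which holds none of them. Of 12861 genes, 1351 were called among these 16 mice (10.5%), 5.75% higher and 4.75% lower. In the 2 sets of different mice 100 genes were called with the same sign (0.83% of 12055), 55 higher (0.456%) and 45 lower (0.373%). Of the 114 both-run genes, which the same mice helped to choose, 96 were called in the mice with a single library, 54 higher and 42 lower, a description and not a second test. The challenge mice of both sets are still exp18.

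**Figure D1:**
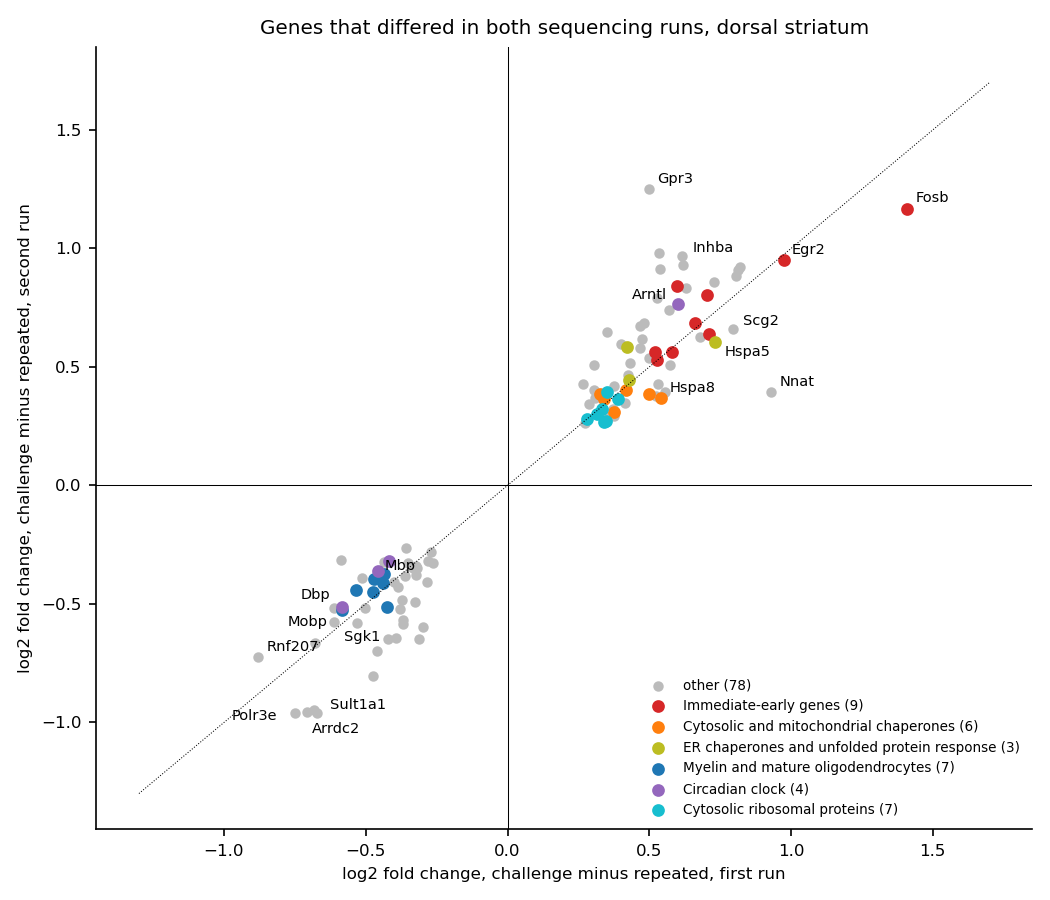
Each point is 1 of the 114 genes called in both runs, placed by its log2 fold change (challenge minus repeated) in the first run (x axis) and the second run (y axis), coloured by gene list, with a dotted line of equality. All points lie in the upper right or lower left quadrant because the rule asks for the same sign; Fosb is farthest right at 1.41 and Rnf207 farthest left at -0.88.

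The IEGs Fosb and Egr2 had the highest first-run log2 fold changes of the 66 higher genes, and the other called IEGs lay between 0.52 and 0.71, below several genes outside the list. Of 25 listed IEGs tested in both runs, 9 were higher in both and none lower, with a median log2 fold change of 0.32 in the first run and 0.43 in the second, against -0.0063 and -0.0047 over all genes tested in both. Fosb (chr7:19302696-19310051, minus strand; GRCm38, GENCODE M21), a Fos-family factor whose stable truncated product accumulates with repeated drug exposure, ranged from 13.1 to 120.4 normalised CPM, counts scaled to library size (median 56.4) in the challenge libraries of the first run. In repeated mice it ranged from 5.35 to 43 CPM (median 17.9). The groups overlapped across time points, but at each time point the challenge mean was higher. With time as covariate the log2 fold change was 1.41 ± 0.12 (SE; edgeR adjusted p = 1.54e-12) in the first run and 1.17 ± 0.17 (adjusted p = 6.5e-07) in the second. Against the exp16 mice alone it was 1.60, and against the exp17 mice alone 1.26.

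Egr2, a zinc-finger factor of the same early response, had a median of 40.5 CPM in challenge mice (range 14.8 to 147) and 14.3 in repeated mice (range 8.5 to 96.7), with a log2 fold change of 0.97 ± 0.11 in the first run (edgeR adjusted p = 3.66e-09). Its relatives Egr1, Egr3 and Egr4 were higher by 0.53, 0.58 and 0.60 on the log2 scale in the first run. The orphan nuclear receptors Nr4a1 and Nr4a3 were higher by 0.71 and 0.71, the synaptic gene Arc by 0.66 and the AP-1 subunit Junb by 0.52. Fos itself did not meet the rule: its log2 fold change was 0.65 (edgeR adjusted p = 0.00493) in the first run and 0.65 (adjusted p = 0.262) in the second, with levels as low as 2.12 CPM. The acute mice spanned 13.2 to 189 CPM of Egr2 and 8.29 to 75 CPM of Fosb, where the second-run challenge mice spanned 9.46 to 115 and 21.7 to 138. The count of 9 IEGs fell to 2 when time was left out of the fit.

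**Figure D2:**
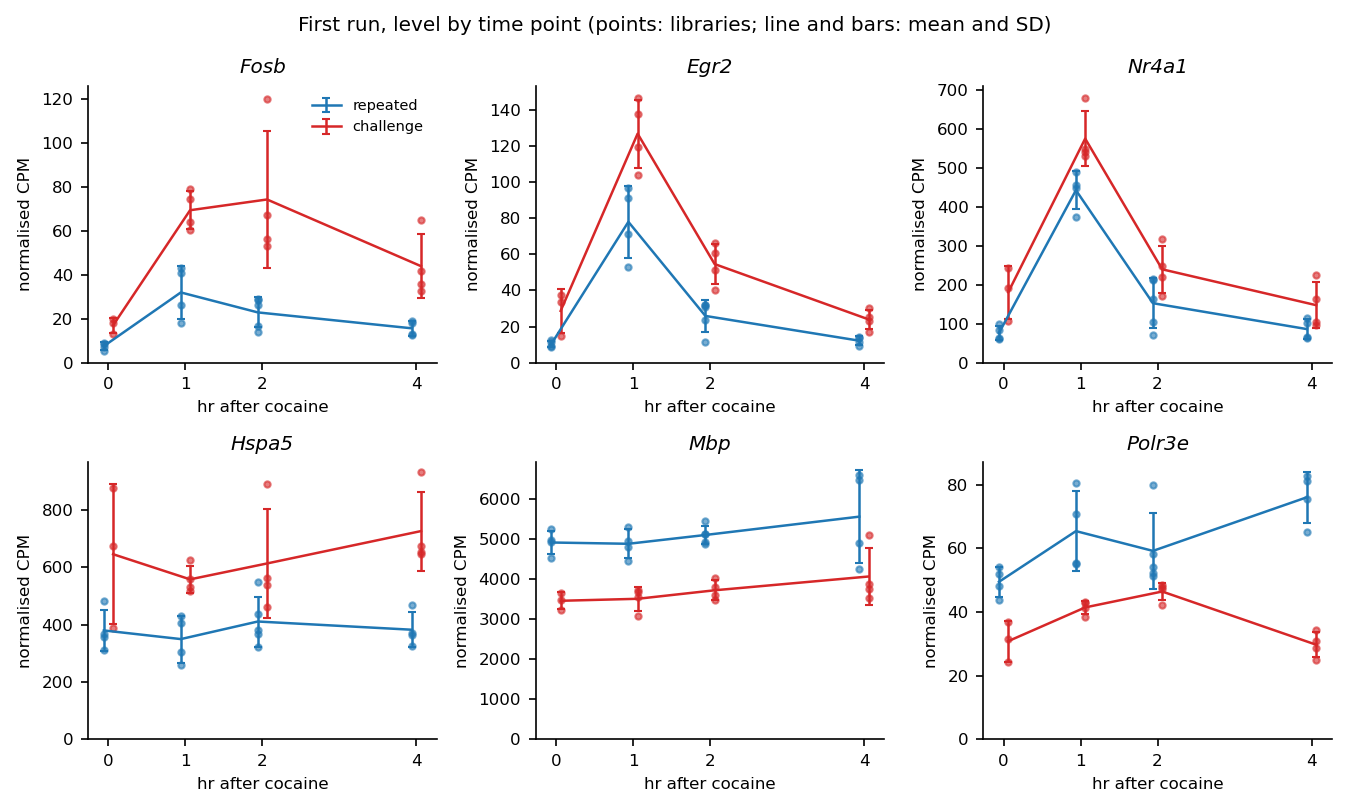
Normalised CPM (y axis, linear from 0) by hr after cocaine (x axis) in the first run for 6 genes, with points for libraries and lines and bars for mean and SD of 3 to 5 mice. Egr2 and Nr4a1 peak at 1 hr in both groups with the challenge line above, Mbp is lower in challenge mice at every time point, and the Polr3e gap is widest at 4 hr.

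Several further genes among the 66 belonged to none of the lists and were named for their size or after their values were seen. Scg2 (chr1:79434669-79440120, minus strand), which encodes the granin secretogranin II of dense-core vesicles, lay between 691 and 1027 CPM in challenge mice (median 847) and between 394 and 586 in repeated mice (median 460.2). Scg2 was the 1 gene of the 114 whose groups overlapped in neither run: the second-run challenge libraries lay between 543 and 852 CPM and the repeated between 355 and 503. The log2 fold change was 0.79 ± 0.05 in the first run (edgeR adjusted p = 1.94e-16) and 0.66 ± 0.06 in the second (adjusted p = 7.37e-14). The acute mice of the second run, from 366 to 531 CPM, overlapped the repeated mice of that run and reached above them. They stayed below the challenge mice of that run. The neuropeptide precursor Vgf was higher by 0.55 and the prohormone convertase Pcsk1 by 0.53, while of the 14 listed neuropeptide and receptor genes tested 0 were called in both runs. Pcsk1 did not pass in the mice with a single library (0.21, edgeR adjusted p = 0.343).

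Nptx2, a secreted pentraxin that clusters AMPA receptors, had a median of 65.3 CPM in challenge mice (range 27.9 to 94) and 34.2 in repeated mice (range 20.5 to 54.2), a log2 fold change of 0.81 ± 0.09 (edgeR adjusted p = 4.47e-10). The MAP kinase phosphatase Dusp14 ranged from 121 to 407 CPM in challenge mice and from 77.3 to 271 in repeated mice, a log2 fold change of 0.81 ± 0.08 (adjusted p = 1.12e-10). The atypical small GTPase Rnd3 was higher by 0.73 and the activin subunit Inhba by 0.62. Postsynaptic Homer1 was higher by 0.38, and it was the 1 member of 32 listed postsynaptic scaffold and kinase genes called in both runs. Rheb, the GTPase that activates mTORC1, did not overlap between groups in the first run (challenge 304 to 423 CPM, repeated 188 to 271), and its log2 fold change was 0.53 ± 0.05 (adjusted p = 1.78e-12).

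Of 21 dopamine-signalling genes tested, 8 had a positive and 13 a negative first-run log2 fold change (list median -0.08). In the first run 2 were called higher and 2 lower, and in the second 2 higher and 1 lower. Their summed level had a median of 13603 CPM in challenge and 14356 CPM in repeated mice of the first run, and 14685 and 15296 CPM in the second. In both runs 2 genes of this list were higher and none lower. These were Rgs2, a regulator of G-protein signalling, and Pde7b, a cAMP phosphodiesterase, with first-run log2 fold changes of 0.47 and 0.57. Both were also lower in exp17 than in exp16 repeated mice (exp17 minus exp16 -0.34 and -0.35), and were nearer the challenge mice in exp16 (0.31 and 0.41) than in exp17 (0.67 and 0.77). The dopamine receptors were not called: the log2 fold changes in the first run were -0.08 for Drd1 (edgeR adjusted p = 0.135) and 0.04 for Drd2 (adjusted p = 0.481). The dissected tissue carried the striatal markers, with Ppp1r1b, which encodes DARPP-32, between 2863 and 3738 CPM in repeated mice and between 2784 and 3419 in challenge mice. None of the 21 genes shared by projection neurons was called in both runs. Of these, 18 had a negative first-run log2 fold change and 3 were called lower (median -0.17, and -0.0035 in the second run), and their summed level had a median of 24766 CPM in challenge and 26656 CPM in repeated mice of the first run, and 25723 and 27031 CPM in the second. The part of these neurons in the other results was not tested. Of 8 genes of Drd1 projection neurons, Sfxn1, a mitochondrial serine transporter, was higher in both runs (0.35 and 0.28; edgeR adjusted p = 0.000194 and 0.0367).

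Chaperones were another group among the higher genes. Among 32 cytosolic and mitochondrial chaperones tested, all 32 had a positive first-run log2 fold change (median 0.23, and 0.26 in the second run), 12 were called higher in the first run, 9 in the second and 6 in both. Hspa8, the constitutive HSC70, ranged from 1230.0 to 2164 CPM in challenge mice (median 1563) and from 858 to 1307 in repeated mice (median 1099), overlapping at the edge. Its log2 fold change was 0.54 ± 0.06 in the first run (edgeR adjusted p = 1.62e-09) and 0.37 ± 0.06 in the second (adjusted p = 5.01e-06). The nucleotide exchange factors Hsph1 and Hspa4 were higher by 0.50 and 0.38, the co-chaperones Dnaja1 and Chordc1 by 0.34 and 0.42, and mitochondrial Hspe1 by 0.33. Without the 0 hr mice the count in both runs was 3, and 5 against exp16 mice alone.

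In the endoplasmic reticulum (ER) list, 3 of 30 genes were higher in both runs and none lower. Hspa5 (chr2:34771970-34777547, plus strand), the ER chaperone BiP, had a median of 626 CPM in challenge mice (range 389 to 933) and 369 in repeated mice (range 259 to 549). The groups overlapped, and the log2 fold change was 0.73 ± 0.09 in the first run (edgeR adjusted p = 5.67e-09) and 0.61 ± 0.09 in the second (adjusted p = 2.48e-06). The protein disulphide isomerase Pdia6 was higher by 0.43. The stress-induced factor Ddit3 (CHOP) was higher by 0.42, with 0.26 against exp16 mice and 0.62 against exp17 mice.

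Promoter windows show letters that heat shock factor, the ER stress response, CREB and the clock factors are known to bind. Windows of 300 bases (250 before to 50 after the start; RefSeq, GRCm38.p6) matched 87 of the 114 genes by symbol, and some RefSeq genes have more than 1 window. Both strands were searched for 4 motifs, chosen with these results known. The ER stress element, CCAAT and CCACG with 9 bases between, was in 0.119% of all windows, in a window of 0.148% of the 9490 genes tested in both runs that had one, and in 2 of the 87 genes (2.3%), Hspa5 and Pdia6. The heat shock element, GAA, TTC and GAA with 2 bases between each, was in 0.603% of all windows, for 0.569% of the genes tested and 4 of the 87 (4.6%), Chordc1, Hspe1, Hsph1 and Nnat. The cAMP response element TGACGTCA was in 1.79% of all windows, for 3.7% of the genes tested and 6 of the 87 (6.9%), Scg2 among them. The E-box CACGTG was in 7.15% of all windows, for 11.9% of the genes tested and 14 of the 87 (16.1%), Tef among them. Among listed genes with a window, the ER stress element was in 8 of 24 ER genes. Of these, Calr, Canx, Creld2, Dnajc3, Hsp90b1 and Syvn1 were not called in both runs. The heat shock element was in 4 of 25 listed chaperones, of which Hspd1 was not called in both. The cAMP response element was in 3 of 21 listed IEGs (Arl4d, Btg2 and Dusp1), none called in both. The E-box was in 5 of 18 listed clock genes, of which only Tef was called in both. A match describes letters in the window and not a bound site. A chaperone pair for each stress motif, Scg2 and Tef are shown 5′ to 3′ on the gene's strand with the motif in capitals; the windows are chr2:34771840-34772139 (plus), chr12:17266339-17266638 (plus), chr5:149636266-149636565 (minus), chr9:18292017-18292316 (plus, 3 overlapping matches), chr1:79439977-79440276 (minus) and chr15:81802423-81802722 (plus).
Hspa5: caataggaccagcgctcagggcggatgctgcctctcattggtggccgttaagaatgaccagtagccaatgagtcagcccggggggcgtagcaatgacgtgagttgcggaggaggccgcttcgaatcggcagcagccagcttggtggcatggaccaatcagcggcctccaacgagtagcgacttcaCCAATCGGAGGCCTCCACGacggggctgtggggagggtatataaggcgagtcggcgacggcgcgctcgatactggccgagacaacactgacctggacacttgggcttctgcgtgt
Pdia6: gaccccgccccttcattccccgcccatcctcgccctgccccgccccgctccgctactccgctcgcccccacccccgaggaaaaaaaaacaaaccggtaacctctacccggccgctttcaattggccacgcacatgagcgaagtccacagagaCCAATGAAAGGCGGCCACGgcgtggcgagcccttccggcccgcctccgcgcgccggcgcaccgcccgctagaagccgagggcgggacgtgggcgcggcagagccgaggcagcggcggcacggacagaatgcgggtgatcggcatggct
Hsph1: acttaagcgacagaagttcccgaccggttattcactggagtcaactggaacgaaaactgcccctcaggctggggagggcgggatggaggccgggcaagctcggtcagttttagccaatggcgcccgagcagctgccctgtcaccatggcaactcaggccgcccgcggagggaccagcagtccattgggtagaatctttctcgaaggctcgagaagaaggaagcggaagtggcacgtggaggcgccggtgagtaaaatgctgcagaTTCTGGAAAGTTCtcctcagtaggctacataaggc
Chordc1: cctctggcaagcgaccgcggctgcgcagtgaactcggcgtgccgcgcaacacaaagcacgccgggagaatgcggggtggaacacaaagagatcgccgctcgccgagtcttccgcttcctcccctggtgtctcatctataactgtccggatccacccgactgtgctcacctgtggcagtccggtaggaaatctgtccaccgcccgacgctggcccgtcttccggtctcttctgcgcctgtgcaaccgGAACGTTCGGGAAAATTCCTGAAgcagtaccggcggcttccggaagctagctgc
Scg2: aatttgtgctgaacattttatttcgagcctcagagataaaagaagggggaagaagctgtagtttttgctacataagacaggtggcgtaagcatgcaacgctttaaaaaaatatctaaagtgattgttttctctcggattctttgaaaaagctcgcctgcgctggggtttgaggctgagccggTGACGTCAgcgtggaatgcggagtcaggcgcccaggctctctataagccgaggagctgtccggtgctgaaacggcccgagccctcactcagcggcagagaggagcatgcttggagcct
Tef: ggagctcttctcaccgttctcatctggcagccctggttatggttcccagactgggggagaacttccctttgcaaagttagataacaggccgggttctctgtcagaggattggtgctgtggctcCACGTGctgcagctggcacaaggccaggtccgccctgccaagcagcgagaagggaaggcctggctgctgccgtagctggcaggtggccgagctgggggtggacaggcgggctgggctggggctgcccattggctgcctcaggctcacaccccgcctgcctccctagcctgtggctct

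Of the lists, myelin held the most genes lower in both runs. Among 28 genes of myelin and mature oligodendrocytes, 7 were lower in both runs and none higher, and the list median was -0.29 in the first run and -0.18 in the second. Mobp (chr9:120149707-120181484, plus strand), an oligodendrocyte basic protein of central myelin, lay between 771 and 1132 CPM in challenge mice (median 883) and between 1137 and 2003 in repeated mice (median 1287), without overlap in the first run. In the second run the challenge libraries ran from 744 to 1031 CPM and the repeated from 1021 to 1411, overlapping at the edge. The log2 fold change was -0.58 ± 0.05 (edgeR adjusted p = 1.13e-12), -0.52 ± 0.05 in the second run (adjusted p = 5.38e-12) and -0.69 in the mice with a single library. Acute mice ranged from 1118 to 1324 CPM, within the range of the second-run repeated mice. For the whole list the acute mice were higher, with summed levels of 14868 to 17199 CPM against 12338 to 14812 in the second-run repeated mice, without overlap, and 9782 to 13644 in the challenge mice.

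Mbp, myelin basic protein and the most abundant of the called myelin genes, had a median of 3663 CPM in challenge mice and 4958 in repeated mice, a log2 fold change of -0.47 ± 0.05 (edgeR adjusted p = 7.54e-11). The first-run log2 fold change was -0.53 for the proteolipid Mal, -0.47 for the adhesion molecule Mag, -0.43 for the tight-junction claudin Cldn11, -0.44 for the tetraspanin Tspan2 and -0.43 for the deacetylase Sirt2, which is rich in oligodendrocytes. Mog had -0.39 in the first run and -0.24 in the second (adjusted p = 0.23). The myelin transcription factor Myrf, outside the list, had -0.46. Of 13 genes of oligodendrocyte precursors and newly formed oligodendrocytes, 11 had a negative first-run log2 fold change, with 6 called lower and 1 higher (list median -0.19, and -0.12 in the second run). Their summed level had a median of 539 CPM in challenge and 619 CPM in repeated mice of the first run, and 515 and 607 CPM in the second. The 1 called in both runs, Gpr17, a receptor of newly formed oligodendrocytes, had -0.30, but its difference was -0.03 against exp16 mice and -0.52 against exp17 mice, and without repeated 1 hr replicate 3 (-0.26) it was under the fold limit. The count in both runs was also 7 when the first run was fitted against exp16 mice alone or exp17 mice alone, and 0 at a fold change over 1.5. The repeated cohorts also differed in this list: 8 of the 28 genes were lower in exp17 than in exp16 and none higher (list median -0.14). In tissue of this kind fewer oligodendrocytes and less myelin RNA per cell cannot be told apart.

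**Figure D3:**
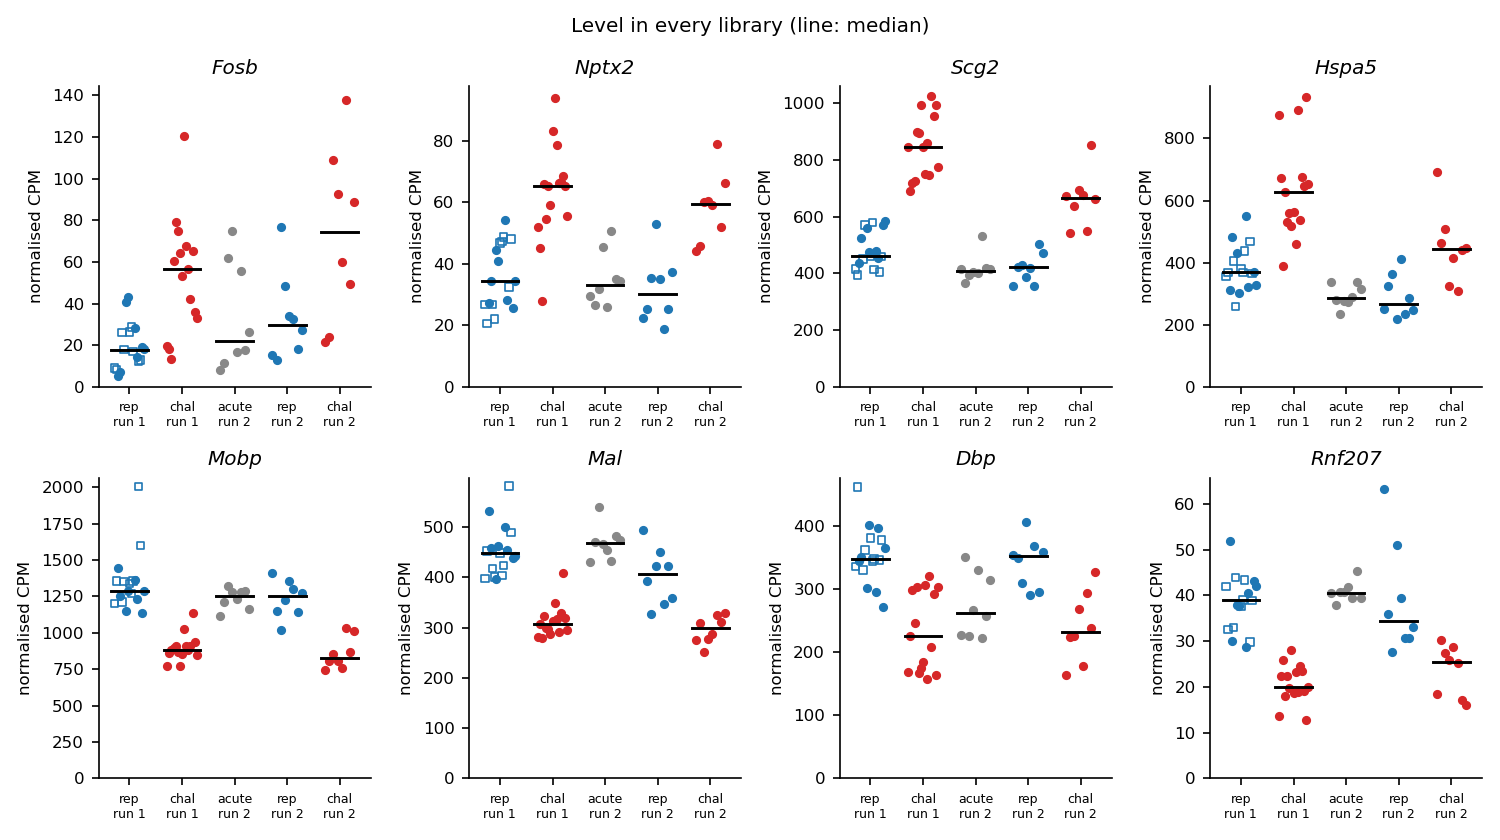
Normalised CPM (y axis, linear from 0) in every library for 8 genes: repeated (rep, blue) and challenge (chal, red) in both runs, and acute (grey) in the second, with open squares for exp16 and a line at the median. Scg2 separates the groups in both runs, and Mobp and Rnf207 in the first run.

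Clock genes changed in both directions. Of 21 tested, 1 was higher and 3 were lower in both runs. Arntl, the BMAL1 activator, had a median of 90 CPM in challenge mice (range 55.1 to 122) and 58.8 in repeated mice (range 42.5 to 69.9), a log2 fold change of 0.60 ± 0.09 (edgeR adjusted p = 5.05e-07). The 3 lower genes, Dbp, Hlf and Tef, are the PAR bZIP output factors of the clock, with log2 fold changes of -0.58 ± 0.09, -0.46 ± 0.06 and -0.42 ± 0.05. Dbp (chr7:45705088-45710203, plus strand) ran from 157 to 319 CPM in challenge mice and from 272 to 461 in repeated mice. The counts were the same against exp16 or exp17 mice alone. Without the 0 hr mice the counts in both runs were 0 higher and 1 lower. The clock hour at which each mouse was killed is not given in the sources used here, and its part in these values was not tested.

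Of 18 glucocorticoid-responsive genes tested, 3 were lower and none higher in both runs. In the first run alone 4 were lower and 1 higher, and in the second 4 lower and 0 higher. Sgk1, a kinase induced by corticosteroids, had a median of 131 CPM in challenge mice (range 84.4 to 169.8) and 191 in repeated mice (range 104 to 270.0), and its log2 fold change was -0.61 ± 0.09 (edgeR adjusted p = 4.05e-07). The sulfotransferase Sult1a1 and the arrestin-domain gene Arrdc2 had -0.67 and -0.71, at median repeated levels of 23.2 and 14.8 CPM. The count in both runs was 1 under DESeq2 and 1 without the 0 hr, the 1 hr or the 4 hr mice.

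Other leading lower genes were named for their size or after their values were seen. Rnf207, a RING-finger protein known from cardiac channel regulation, lay between 12.8 and 28.1 CPM in challenge mice and between 28.7 and 51.9 in repeated mice. It was without overlap in the first run, with the lowest log2 fold change of the 114, -0.88 ± 0.09 (edgeR adjusted p = 6.06e-11). Polr3e, a subunit of RNA polymerase III, had -0.75 ± 0.08 (adjusted p = 1.12e-09). The orphan receptor Gpr139 had -0.68, and was closer to exp17 (-0.40) than to exp16 mice (-0.91). Further lower genes, with no list in common, were the kainate receptor subunit Grik5 (-0.50), the M-current channel Kcnq3 (-0.36), the presynaptic active-zone gene Tspoap1 (-0.59) and the histamine autoreceptor Hrh3 (-0.38), which did not overlap between groups in the second run. The GTPase regulator Rgl2 (-0.61) was also lower. Grik5 was the 1 of 29 listed glutamate-receptor genes and Kcnq3 the 1 of 42 listed potassium-channel genes called in both runs. The potassium-channel count was 3 under DESeq2 and 0 without the 0 hr, the 1 hr or the 4 hr mice. The summed level of that list was 4276 to 4616 CPM in challenge and 4672 to 4784 CPM in repeated mice of the second run, without overlap, and 3896 to 4246 and 4228 to 4635 CPM in the first, with overlap. Of the glial secreted proteins, the matrix protein Sparcl1 (-0.27) and the prostaglandin D synthase Ptgds (-0.33) were lower. The calls of both depended on single libraries: Ptgds was under the fold limit without repeated 4 hr replicate 1 (-0.26), and Sparcl1 was under it without any 1 of 5 libraries of the 32 (repeated 0 hr replicate 3 and 1 hr replicate 4, and challenge 0 hr replicate 1, 1 hr replicate 2 and 2 hr replicate 4).

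**Figure D4:**
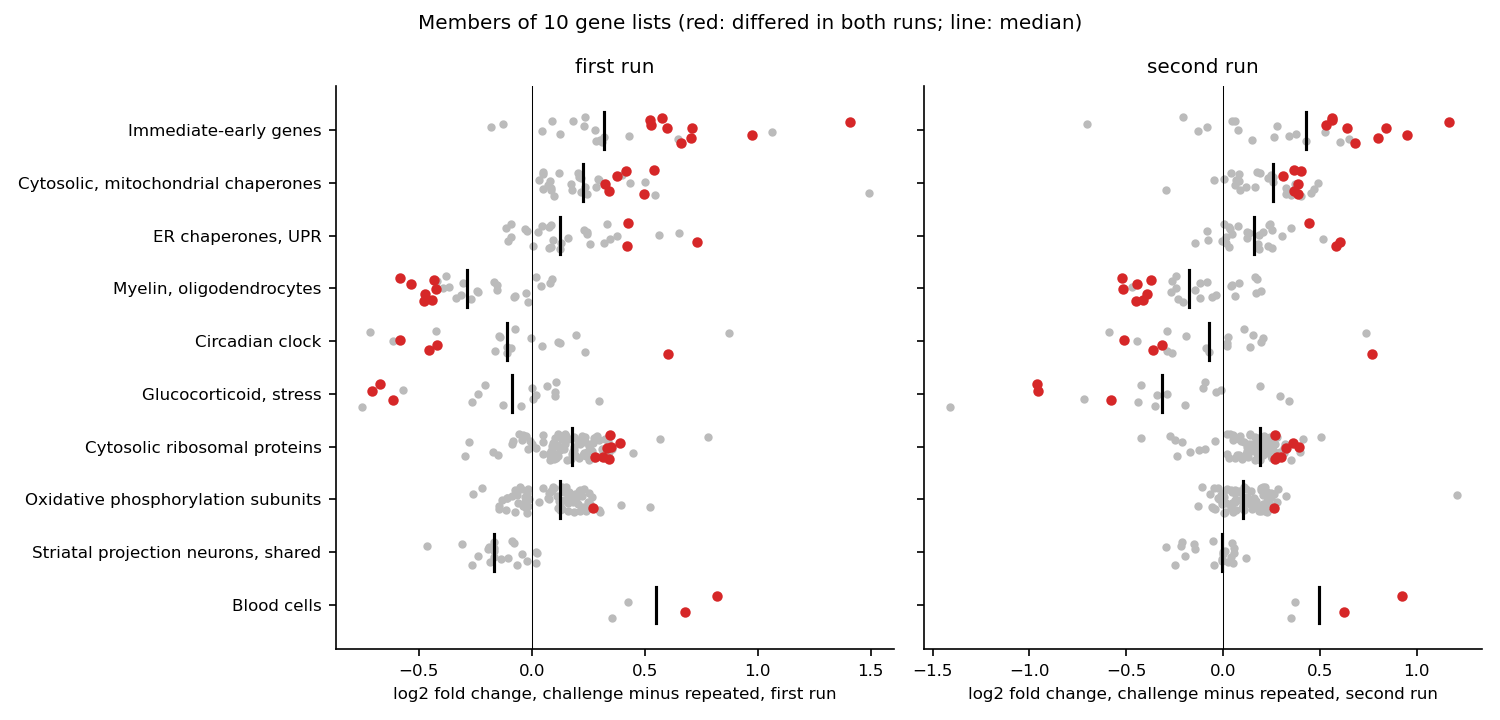
Members of 10 gene lists by log2 fold change (challenge minus repeated, x axis) in the first run (left) and second run (right), red where called in both runs and grey otherwise, with a black line at the list median. The IEG and chaperone medians lie to the right of 0 and the myelin medians to the left in both runs.

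Of 93 cytosolic ribosomal protein genes, 7 were higher in both runs and none lower (list median 0.18 and 0.19). In the first run 81 had a positive and 12 a negative log2 fold change, with 25 called higher and 2 lower. Of 80 oxidative-phosphorylation subunits, 52 positive and 28 negative in the first run, Atp5j2 alone was called in both runs, higher, and 24 were lower in exp17 than in exp16 and none higher. That count of 1 was 0 against exp16 mice, without the filter, at a mean CPM of at least 10, with the replicate block, with every library thinned to the smallest and without the 0 hr or the 1 hr mice, and 3 against exp17 mice. Rpl38 had the largest ribosomal value, 0.39 ± 0.05 in the first run (edgeR adjusted p = 5.3e-08). The ribosomal list also differed between the repeated cohorts, with 24 ribosomal genes lower in exp17 than in exp16, and the count of 7 was 0 against exp16 mice alone and 14 against exp17 mice alone. Reads of ribosomal genes can be shared with near-identical pseudogenes, so single values are uncertain.

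Markers of some other cell types differed between the groups in the first run. The 11 ependymal genes tested were all higher in the first run (median log2 fold change 1.13) and none was called in the second run (median 0.24). Their summed level in the first run was 32.9 to 54.7 CPM in exp16 repeated mice, 125 to 207 in exp17 repeated mice and 159 to 289 in challenge mice. The first-run difference therefore lay mostly between exp16 and the rest. In the second run the summed level had a median of 175 CPM in challenge and 185 CPM in repeated mice. Genes of immature neurons moved alike in the first run, with 9 of 17 called higher, and 1, Nnat, was called in both runs. Nnat, an imprinted proteolipid, was at 123 CPM (median) in exp16, 259 in exp17 and 339.6 in challenge mice, with a log2 fold change of 1.54 against exp16 and 0.48 against exp17. The ependymal level was added as a covariate to the first-run fit after the data were seen, and the second run was fitted without it. Then 155 genes were called in both runs, among them 9 IEGs and 7 myelin genes. The ependymal level mostly sets exp16 apart from the other mice, so that fit cannot tell it from experiment number. Foxj1 and Ccdc153, 2 of the defining ependymal markers, had counts in every library, and Tmem212 was at 0 in 2 libraries. The part of these cells in the other results was not tested beyond that fit.

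Of 4 blood-cell genes tested in both runs, 2 were higher in both, the adult beta-globins: Hbb-bt with 72.3 to 234 CPM in challenge and 36.8 to 81.3 in repeated mice (log2 fold change 0.82 ± 0.10, edgeR adjusted p = 8.16e-09), and Hbb-bs with 0.68. They are close paralogs whose reads may be split, and Hba-a1 had 0.35 and 0.35 (adjusted p = 0.255) in the 2 runs. Alas2, the erythroid enzyme of haem synthesis, was too low to be tested in the second run and had 0.43 in the first (edgeR adjusted p = 0.301). Its mean was 1.83, 2.69, 1.61 and 1.41 CPM in challenge mice and 1.38, 0.674, 1.01 and 2.37 CPM in repeated mice at 0, 1, 2 and 4 hr. The summed level of the blood list was 520 to 1314 CPM in challenge and 284 to 624 CPM in repeated mice of the first run, and the part of blood in the other results was not tested. In the lists of microglia, astrocytes, endothelial and mural cells, choroid plexus, meninges, interneurons and cortical neurons, no gene was called in both runs, although the choroid plexus list had only 1 gene tested. Of 10 cortical-neuron genes, 4 were called higher in the first run (median log2 fold change 0.31, and -0.01 in the second run). The astrocyte genes had a summed level with a median of 4543 CPM in challenge and 5069 CPM in repeated mice of the first run, and 4828 and 5494 CPM in the second, with 1 of 16 called lower in the first run and 0 in the second. The part of these cells in the other results was not tested. No gene was called in both runs either in the lists of synaptic vesicle proteins, GABA receptors, opioid and other neuropeptides, calcium and sodium channels, actin regulators, sterol synthesis, MHC class I and interferon genes, and proteasome subunits. Some of these lists still differed in the first run. Of 28 calcium, sodium and HCN channel genes, 23 had a negative log2 fold change and 8 were called lower and 1 higher, and the summed level was 3702 to 4287 CPM in challenge mice and 4383 to 4874 CPM in repeated mice, without overlap. In the second run 1 was called lower and the sums overlapped (4401 to 4926 and 4789 to 4960 CPM). Of 24 sterol and lipid synthesis genes, 19 were negative and 6 called lower in the first run and 0 in the second.

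**Figure D5:**
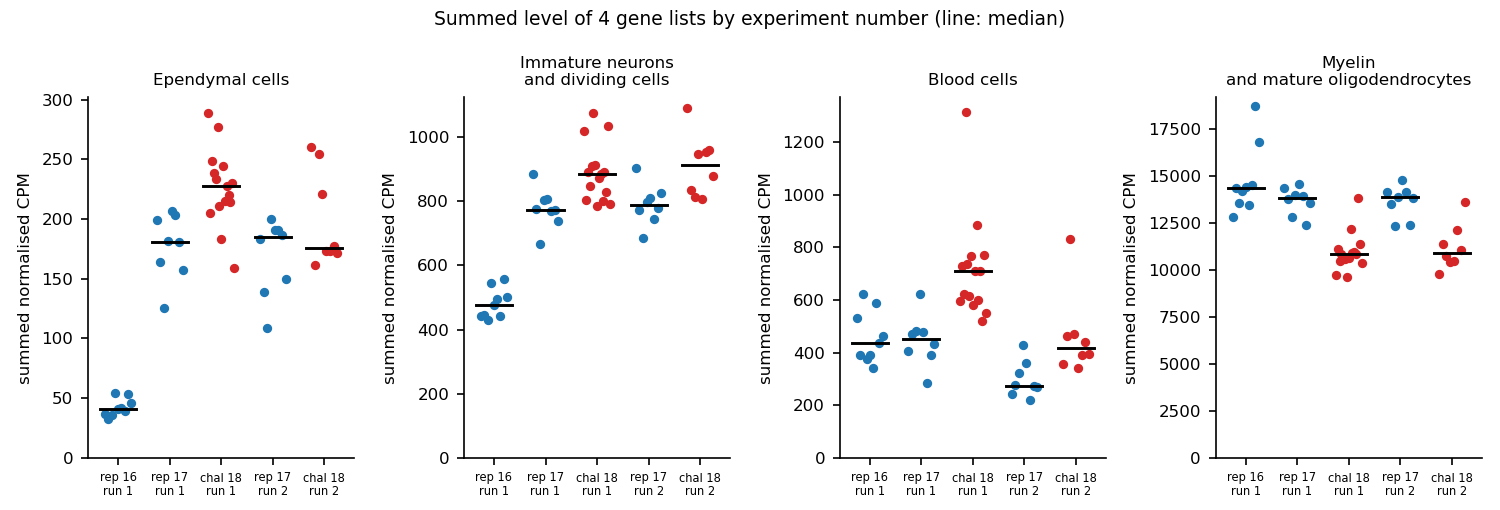
Summed normalised CPM (y axis, linear from 0) of 4 gene lists in every library, by experiment number and run (rep, repeated, blue; chal, challenge, red; line at the median). Ependymal and immature-neuron sums are lowest in the exp16 repeated mice, and the myelin sums are lower in challenge mice than in both repeated cohorts.

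Experiment numbers were then taken in turn. Of the 114 genes, 84 were called in the first run against exp16 mice alone and against exp17 mice alone, a description only, since these libraries helped to choose them. Over all genes tested, 1449 were called against exp16 alone and 1813 against exp17 alone. How many passed both of these fits was not counted. Between exp17 and exp16, 21 of the 114 differed, beside 964 of all 12561 genes tested (7.67%). Of these 21, 4 went in the direction of challenge minus repeated (Nnat, Sgsm1, Ptgds and Gpr139) and 17 in the opposite one. All repeated mice of the second run are exp17, so the choice of the 114 was not independent of this split. By list, many genes called in both runs were also called in the 2 sets of different mice. These were all 9 IEGs, 7 myelin genes, 6 cytosolic and mitochondrial chaperones, 4 clock genes and 2 dopamine-signalling genes. They also included 5 of 7 ribosomal genes, 2 of 3 ER genes (not Ddit3), 2 of 3 glucocorticoid-responsive genes (not Sult1a1) and 1 of 2 glial secreted genes (not Sparcl1). Hbb-bs, Hbb-bt, Nnat, Sfxn1 and Grik5 were called there too, and the potassium-channel list had 1 such call. The repeated mice with a single library are exp16. No ribosomal gene was called in both runs when all challenge mice were fitted against exp16 alone. Homer1, Gpr17 and Atp5j2 were not called in these sets.

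Time after cocaine was examined last. All 114 genes had the same sign at all 4 time points of the first run, which is a description, since these libraries helped to choose them. In the abstinent against the repeated state at 0 hr, 168 of 12739 genes were called (1.32%; 0.471% higher and 0.848% lower), and 46 of the 114 were among them in the same direction, 19 higher and 27 lower, with the same limit. These included Scg2 (0.76), Hspa5 (0.77), Egr2 (1.46), Mobp (-0.64) and Mbp (-0.51). The 0 hr count rests on 3 challenge mice, and was 24 without challenge replicate 1 and 61 without challenge replicate 2. Egr2 rose in both groups, from 28.7 ± 12.2 CPM (SD, n = 3) at 0 hr to 127 ± 19 (n = 4) at 1 hr in challenge mice and from 10.4 ± 1.86 (n = 4) to 78.1 ± 19.9 (n = 4) in repeated mice. Fosb was at 74.4 ± 31.3 CPM at 2 hr in challenge mice and 22.9 ± 6.88 in repeated mice (n = 4 and 5). The test of treatment by time called 0 of 12739 genes by edgeR, with a lowest adjusted p of 0.134 and 421 genes (3.30%) at an unadjusted p under 0.05. DESeq2 called 2, Polr3e and Rhou. On simulated data the edgeR test recovered 118 of 200 genes changed 2-fold at 1 time point, so it can miss changes with time. Polr3e had log2 fold changes of -0.68, -0.66, -0.35 and -1.35 at 0, 1, 2 and 4 hr, and Rhou, a small GTPase that is not among the 114, had -0.56, -0.10, -0.01 and -1.05. Cdkn1a, Cxcl10 and Ddit4 had the next lowest interaction p-values, each with an edgeR adjusted p of 0.187.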

How the data were processed

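Counts per gene from 3′ RNA-seq of 19363 genes were used as the authors deposited them, unnormalised, in 1 table of 194 libraries. Per the study's methods, duplicates were removed by molecular identifiers before reads were aligned with STAR to GRCm38 and counted per gene with HTSeq. The annotation is not given in the sources used here. Whether counting used strand is not stated either, so overlapping genes such as Chd3os may share reads.

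Each run was fitted on its own with edgeR 4.0.16 (R 4.3.3) after filterByExpr and TMM scaling, by the quasi-likelihood test with time as covariate and Benjamini-Hochberg adjustment. Genes were called at an adjusted p under 0.05 and a fold change over 1.2. Levels are TMM-normalised CPM. The SE is the absolute log2 fold change over the square root of the F statistic. The members and lists were chosen with earlier results of these data known. Named genes were the 10 largest increases and decreases at a mean CPM of at least 10, up to 4 per list, the 5 lowest interaction p-values and cell markers. The other named genes were added after their values were seen. Some genes that met these rules are not reported here.

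The mice are separate animals, by the animal numbers in the labels. Paired libraries of a mouse differed by a chi-square per degree of freedom of 5.46 to 10.2, and different mice within a run by 2.02 to 7.89, so no library appeared more than 1 time. On simulated data of 12739 genes the first-run fit recovered 40 of 67 genes changed 1.3-fold and 63 of 66 changed 2-fold, with 11 false calls. The alternatives tried were scaling, filters, DESeq2 1.42.0, limma 3.58.1, thinning, left-out libraries or time points, a replicate block and an ependymal covariate.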

Additional observations from a re-analysis of the deposited data

Results flagged for a closer look

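In 147 groups of 4 or 5 first-run libraries of 1 treatment and time point, covering the 20 leading genes and the total counts, 12 values stood apart from the rest of their group by Dixon's test at the 95% level. Chance flags about 1 in 20 such groups. For repeated mice at 2 hr, replicate 5 was apart for Nptx2 (28.2 CPM against a group median of 47.3), Dusp14 (134 against 248) and Polr3e (80.1 against 54.3). At 0 hr of the same treatment, replicate 1 was low for Rnd3 (10.7 against 15.6) and replicate 2 high for Dbp (461 against 347). In challenge mice at 4 hr, replicate 3 was high for Hspa5 (933 against 665) and Rnd3 (51.2 against 29.0), and replicate 2, the most deeply sequenced library at 10367769 counts, was low for Arrdc2 (4.90 against 9.80) and Sult1a1 (11.1 against 15.2). The remaining values in challenge mice were Nr4a1 at 1 hr (replicate 2, 679.8 against 546), Sgk1 at 1 hr (replicate 2, 146 against 168) and Arrdc2 at 2 hr (replicate 3, 6.29 against 11.4). All of these genes kept their call in the first run when any 1 library was left out.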

How the results depend on the processing

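At a fold change over 1.5, 306 genes were called in the first run, 51 in the second, 23 in both (17 higher and 6 lower), 447 in the mice with a single library, 17 in the 2 sets of different mice and 282 between the repeated cohorts, and the share of higher genes among those called in both runs went from 57.9% to 73.9%, in the first run from 47.2% to 70.6%, in the second from 56.6% to 66.7%, in the mice with a single library from 54.8% to 79.0%, in the 2 sets of different mice from 55.0% to 70.6% and between the repeated cohorts (higher in exp17) from 63.0% to 95.0%. At that limit 0 myelin, 0 cytosolic or mitochondrial chaperone and 0 ribosomal genes, 1 ER gene and 6 IEGs were called in both runs. Without the 0 hr time point the second run gave 109 and both runs 67. Summing the libraries of a mouse into a single test gave 1237 genes and limma voom with the mouse as a random block 1162, each a test of all mice at once and not of agreement between runs. DESeq2 called 2 genes whose difference changed with time. Leaving out 1 mouse at a time gave 1283 to 1529 genes in the first run, 173 to 273 in the second, 91 to 134 in both, 80 to 117 in the 2 sets of different mice, 1137 to 1375 in mice with a single library, 0 to 1 for the change with time and 24 to 140 at 0 hr (24 without challenge 0 hr replicate 1, 61 without challenge 0 hr replicate 2, 101 without repeated 0 hr replicate 2 and 90 without repeated 0 hr replicate 3). Equal replicate numbers did not pair the mice: over 15 pairs the correlation of deviations ran from -0.14 to 0.07. With the number as a replicate block in the first-run fit alone, 1347 genes were called in the first run and 110 in both. Under RLE scaling 115, DESeq2 108, no filter 113, exp17 mice only 145 and exp16 mice only 92 genes were called in both runs. Drd1 changed sign against exp17 mice (0.0032) and with the ependymal covariate (0.0297), and Drd2 against exp16 mice (-0.013), none of them called. Of the ependymal genes, which form that covariate themselves, Foxj1, Ccdc153 and Tmem212 went to -0.41, -0.19 and -0.33 with it, and Foxj1 was at -0.032 against exp17 mice. The causes of the other changes were not tested. In the first run the 8 against 8 mice with 2 libraries gave 1394 genes, and thinning every library to the smallest of its run gave 1338 genes in the first run and 221 in the second. On simulated data, called without the fold limit, the second-run fit recovered 15 of 67 genes changed 1.3-fold, against 40 in the first run.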

Other observations

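Of the 66 higher genes, 4 more are given here, chosen after their values were seen and not as members of a list. The cAMP-responsive factor Crem was higher by 0.54 ± 0.09 (SE, log2 scale) in the first run and 0.91 ± 0.18 in the second (edgeR adjusted p = 3.87e-06 and 0.000604), with 0.37 against exp16 and 0.73 against exp17 mice. The salt-inducible kinase Sik2, the insulin receptor substrate Irs2 and the growth factor Hbegf had first-run log2 fold changes of 0.63, 0.53 and 0.48.

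In the list of MHC class I, interferon and complement genes, all 15 genes tested had a positive first-run log2 fold change (median 0.21, and 0.20 in the second run). Of these, 4 were called in the first run and 0 in both. Of the 1275 genes called in the mice with a single library and tested in the second run, 955 (74.9%) had the same sign there, and of the 228 second-run calls 209 had the same sign in the mice with a single library.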
